A study of Mus musculus with 12 samples.

Results

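Id1, Id2 and Id3 encode Id proteins (inhibitors of DNA binding), and Tcf3, Tcf4 and Tcf12 encode the E proteins E2A, E2-2 and HEB. These 6 genes were taken by symbol from the 3 deposited tables, of 23309 entries (cells cotransduced with MLL-AF9), 23235 (cotransduced with E2A-HLF) and 23235 (cells stably carrying MLL-AF9). Each of the 6 was among the 22364 symbols listed in every table. Id4, the remaining Id gene, was at 0 in 11 of the 12 libraries and at 0.0176 FPKM in the other one.

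E proteins are helix-loop-helix transcription factors that bind DNA as dimers at E-boxes, short sites of the form CANNTG. Id proteins have the helix-loop-helix dimer surface without the basic stretch that contacts DNA, so an E protein paired with an Id protein cannot bind its sites. In blood, E proteins are known for B and T lymphoid development and, in the case of Tcf4, for plasmacytoid dendritic cells, while Id genes are known as targets of BMP and TGF-beta signalling and are used by myeloid and innate lymphoid lineages.

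The study sequenced RNA from bone marrow cells of C57BL/6 mice in culture, with 6 groups and 2 libraries in each. In both cotransductions, lineage-negative bone marrow cells received a leukaemia fusion gene, MLL-AF9 or E2A-HLF, together with PRDM16 or PRDM16mut, and were collected after 10 days in G418 and puromycin. In the MLL-AF9 stable cells, marrow cells that already carried MLL-AF9 received PRDM16 or PRDM16mut and were collected after 10 days in puromycin. All groups grew with IL3, IL6 and SCF, and all carried a fusion gene and a form of PRDM16, a PR domain transcription factor with zinc fingers. No library lacked PRDM16 altogether, the labels do not name the change in PRDM16mut, and they do not say whether the libraries of a group were separate cultures. E2A-HLF joins the activation domains of E2A, the product of human TCF3, to the DNA-binding part of HLF.

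Values are FPKM, fragments scaled to transcript length and library size, so levels can be set side by side between genes. Summed FPKM ran from 570872 to 683269 per library. Steps between low values put the depth of replicate 2 at 1.63 times that of replicate 1 where MLL-AF9 was cotransduced with PRDM16, and at 0.92 to 1.17 times in the other 5 groups, while the absolute depth is unknown. Prdm16 measured 101 against 29.8 FPKM with PRDM16 and PRDM16mut in the MLL-AF9 cotransduction, 52.9 against 50.1 in the E2A-HLF cotransduction and 78.9 against 91.8 in the stable cells, with no separate entry for introduced transcripts. The ribosomal precursor Rn45s was listed at 0 in both PRDM16 libraries of the MLL-AF9 cotransduction and at 941 to 1554 in the other 10, so these libraries stand apart in that entry. Blood cell genes were high in every library. Pax5 and Ms4a1 of B cells were listed at 0 in all 12, and Cd3e of T cells stayed at or under 0.0208 FPKM. Some other lymphoid markers were present in all 12 libraries, Cd79b of B cells at 3.08 to 10.2 FPKM. Nkg7 and Lck of T and NK cells ran from 1.86 to 23.5 and from 1.21 to 3.998 FPKM.

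Id3 and Id2 went opposite ways in the MLL-AF9 cotransduction, and their upstream sequences are shown for that reason. Each is the 250 bases before the transcription start from the RefSeq promoter table, build GRCm38.p6, which is not the mm9 build of the FPKM tables. Id2 lies on the minus strand at chr12:25096093-25096342 and Id3 on the plus strand at chr4:136143572-136143821. Capitals mark E-boxes (CANNTG) and CCAAT boxes, read on both strands.
Id2: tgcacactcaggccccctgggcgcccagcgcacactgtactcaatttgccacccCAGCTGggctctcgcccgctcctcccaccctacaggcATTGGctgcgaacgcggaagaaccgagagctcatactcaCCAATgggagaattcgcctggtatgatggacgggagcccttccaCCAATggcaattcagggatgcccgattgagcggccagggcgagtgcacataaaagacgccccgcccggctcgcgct
Id3: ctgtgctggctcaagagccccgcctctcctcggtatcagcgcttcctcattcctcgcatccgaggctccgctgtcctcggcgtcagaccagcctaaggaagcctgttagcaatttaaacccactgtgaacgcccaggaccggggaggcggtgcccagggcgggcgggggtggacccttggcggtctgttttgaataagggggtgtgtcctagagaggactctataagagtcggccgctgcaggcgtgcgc
The Id2 window held 1 E-box, CAGCTG, starting at base -196 from the transcription start, and 3 CCAAT boxes starting at -159, -120 and -76. The Id3 window held neither.

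Among 32851 windows of this length 66.2% held an E-box and 33.8% a CCAAT box. GGCGCC, a GC-rich motif known from SMAD binding, occurred 1 time upstream of Id2, 0 times upstream of Id3 and in 9.59% of windows. The more specific E-box CAGGTG, itself one of the E-boxes counted above, occurred in neither and in 17.2% of windows, and the Egr1 motif GCGTGGGCG in neither and in 0.536%.

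In the MLL-AF9 cotransduction, PRDM16 went with a different set of Id transcripts: Id3 appeared, Id1 was higher and Id2 was lower. Of the 6 genes, 4 rose, 1 fell and 1 missed the threshold, an adjusted p under 0.05 by limma with Benjamini-Hochberg adjustment over all genes tested in the table. Against this stands a broad difference between the groups, since 69.5% of the 11071 genes tested passed, 35.6% higher and 34.0% lower. A count of 5 in 6 is therefore close to the background. By size, only Id2 and Id3 lay well beyond what was usual. Among genes that passed in this table, sizes had a median of 0.55 in log2, sign ignored. Id1 at 0.66 was near that value, and Tcf4 at 0.46 and Tcf3 at 0.27 were under it. Id1, Tcf4 and Tcf3 ranked 1677, 2429 and 3512 from the top of the 11071 genes. Id2 at -1.28 ranked 536 from the bottom. The count includes Id3, which reached 1 FPKM only in the PRDM16 libraries and so had to differ. In bulk RNA, fewer cells of a type and less RNA per cell cannot be told apart.

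Id3, whose protein pairs with all 3 E proteins, stood at 25.5 and 27.7 FPKM in the PRDM16 libraries and at 0.223 and 0.143 in the mutant ones. The groups were far apart and the replicates close, at 26.6 ± 1.51 (SD, n = 2) against 0.183 ± 0.0566 FPKM. The ratio of the means was 145, and the log2 fold change of FPKM plus 1 was 4.54 with a standard error of 0.0733 (limma, adjusted p = 2.03e-06), rank 12 from the top of the 11071 genes. Id3 passed the filter on low values, an FPKM of at least 1 in 2 libraries, only through the PRDM16 group. Elsewhere in the 6 groups it never exceeded 0.443 FPKM, so the PRDM16 arm of this experiment was the single place in the series where Id3 was clearly present.

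Id2, which natural killer and innate lymphoid cells need and which is also found in myeloid cells, measured 109 and 112 FPKM in the mutant libraries against 45.5 and 44.3 in the PRDM16 libraries. Both mutant libraries were above both PRDM16 libraries, a ratio of 2.45 in favour of the mutant. Its log2 fold change was -1.28 with a standard error of 0.0507 (limma, adjusted p = 2.36e-05).

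Id1, the Id gene most closely linked with BMP signalling and with early blood progenitors, was the most abundant of the 6 genes in the PRDM16 libraries, at 165 and 173 FPKM against 110.0 and 103 with PRDM16mut. It was higher in both PRDM16 libraries, 1.59-fold by the means. The log2 fold change was 0.66 with a standard error of 0.0583 (limma, adjusted p = 3.30e-04).

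The E protein transcripts moved less. Tcf4 (E2-2) stood at 2.58 and 2.10 FPKM in PRDM16 libraries against 1.43 and 1.40. It was low in all 4 libraries, 1.654-fold higher with PRDM16, with a log2 fold change of 0.46 (limma, adjusted p = 0.00554).

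Tcf3 (E2A) measured 21.6 and 25.7 FPKM with PRDM16 and 19.3 in each mutant library. The difference was small, a log2 fold change of 0.27 with a standard error of 0.0901 (limma, adjusted p = 0.0400). Its call was lost without PRDM16mut replicate 1 (adjusted p = 0.176) or replicate 2 (0.177) and without a filter on low values (0.0821), and the log2 fold change was 0.16 without PRDM16 replicate 2. Tcf12 (HEB) measured 14.5 and 13.4 FPKM against 14.7 and 14.6. Its log2 difference of -0.07 did not pass (limma, adjusted p = 0.360), with a 95% interval from -0.23 to 0.09. Without PRDM16 replicate 1, the Tcf12 difference was -0.13 and passed (adjusted p = 0.0432).

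**Figure D1:**
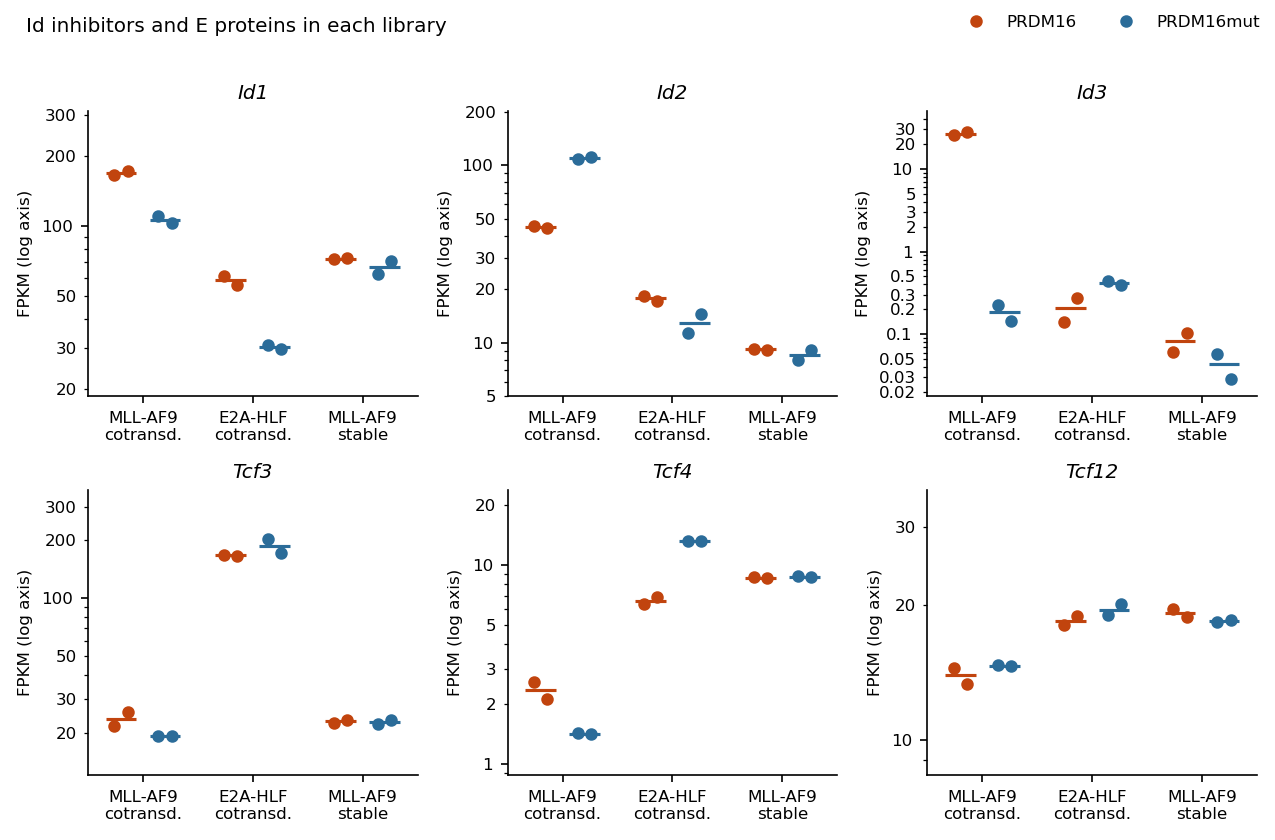
FPKM of the 6 genes on a log axis in each of the 12 libraries, with PRDM16 in red and PRDM16mut in blue; points are libraries and bars are means of 2. Id3 stood at 25.5 and 27.7 in the PRDM16 libraries of the MLL-AF9 cotransduction and at 0.443 or less elsewhere, and Tcf3 at 166 to 203 in the E2A-HLF cotransduction and at 19.3 to 25.7 in the other libraries.

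In the E2A-HLF cotransduction the change lay in Id1, which was higher with PRDM16, and in Tcf4, which was lower. Of the 5 genes tested, Id1 and Id2 rose, Tcf4 fell, and Tcf3 and Tcf12 did not pass. Among all genes of this experiment 43.8% of 11010 genes passed, 22.7% higher and 21.1% lower, so 3 of 5 is again not far from the background.

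Id1 stood at 61.1 and 55.7 FPKM in PRDM16 libraries against 30.9 and 29.7. Both PRDM16 libraries were above both mutant ones, 1.93-fold by the means. The log2 fold change was 0.92 with a standard error of 0.0576 (limma, adjusted p = 9.29e-05), rank 385 from the top.

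Id2 stood at 18.3 and 17.2 FPKM in PRDM16 libraries against 11.39 and 14.5, the mutant libraries differing most from each other. Its log2 fold change was 0.44 with a standard error of 0.107 (limma, adjusted p = 0.0197). The Id2 call was lost without a filter on low values (0.0656), and its log2 fold change was 0.28 without PRDM16mut replicate 1. Id3 was under 1 FPKM in all 4 libraries, at 0.141 and 0.277 against 0.443 and 0.395, and was not tested in this comparison. In 1 fit of all 12 libraries, where it was tested, its log2 difference of -0.23 passed (adjusted p = 0.0294), and without a filter it did not (0.0628). Its higher values were in the mutant libraries, opposite in order to the MLL-AF9 cotransduction.

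Tcf4 measured 6.35 and 6.88 FPKM with PRDM16 and 13.2 in each mutant library. The groups did not overlap, the mutant mean was 1.99 times the PRDM16 mean, and the log2 fold change was -0.90 with a standard error of 0.0561 (limma, adjusted p = 9.28e-05). Tcf12 measured 18.1 and 18.9 FPKM against 19.0 and 20.1, and its log2 difference of -0.08 did not pass (adjusted p = 0.266, 95% interval from -0.20 to 0.05).

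Tcf3 was the most abundant of the 6 genes in this table, at 169 and 166 FPKM with PRDM16 against 203 and 171 with PRDM16mut. Its log2 difference of -0.15 did not pass (limma, adjusted p = 0.187, 95% interval from -0.36 to 0.05), but without PRDM16mut replicate 2 it was -0.28 and passed (0.0109). These levels were well above the 19.3 to 25.7 FPKM of the MLL-AF9 tables, which were made separately, so the comparison is of levels only. Hlf, looked up after these values were seen because it gives the fusion its other part, measured 14.9 in each PRDM16 library and 17.0 and 15.9 FPKM in the mutant libraries here, and at most 0.878 FPKM in the other 8 libraries. The tables have no separate entry for the fusion, and the fusion's part in the Tcf3 level was not tested. Tcf7l1, an unrelated factor also known as TCF3, has an entry of its own at 0.399 FPKM or less.

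In the MLL-AF9 stable cells none of the 5 genes tested passed (limma), and 0 of 5 had an unadjusted p under 0.05. Here 6.36% of 10580 genes passed, 4.20% higher and 2.16% lower, and 66.0% of the calls were higher, or 51.6% after quantile normalization. The 673 genes called came down to between 65 and 139 when any 1 of the 4 libraries was left out. Id1 stood at 72.4 and 72.5 FPKM in PRDM16 libraries against 62.0 and 70.7, a log2 difference of 0.13 (limma, adjusted p = 0.240, 95% interval from -0.03 to 0.28). Leaving out PRDM16mut replicate 1 or 2 moved the Id1 difference to 0.0353 or 0.22 (adjusted p = 0.512 and 0.0572) and the Id2 difference from 0.09 to 0.00515 or 0.18 (0.957 and 0.115). The 95% intervals ran from -0.07 to 0.25 for Id2, from -0.09 to 0.11 for Tcf3, from -0.11 to 0.08 for Tcf4 and from -0.03 to 0.14 for Tcf12.

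Levels in the stable cells were as follows. Id2 stood at 9.21 and 9.12 FPKM in PRDM16 libraries against 7.998 and 9.13, overlapping groups. Tcf3 measured 22.5 and 23.3 against 22.1 and 23.4 FPKM, also overlapping. Tcf4 stood between 8.55 and 8.79 FPKM and Tcf12 between 18.3 and 19.6 in all 4 libraries. Id3 was near 0 throughout, between 0.0285 and 0.104 FPKM, and was not tested.

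**Figure D2:**
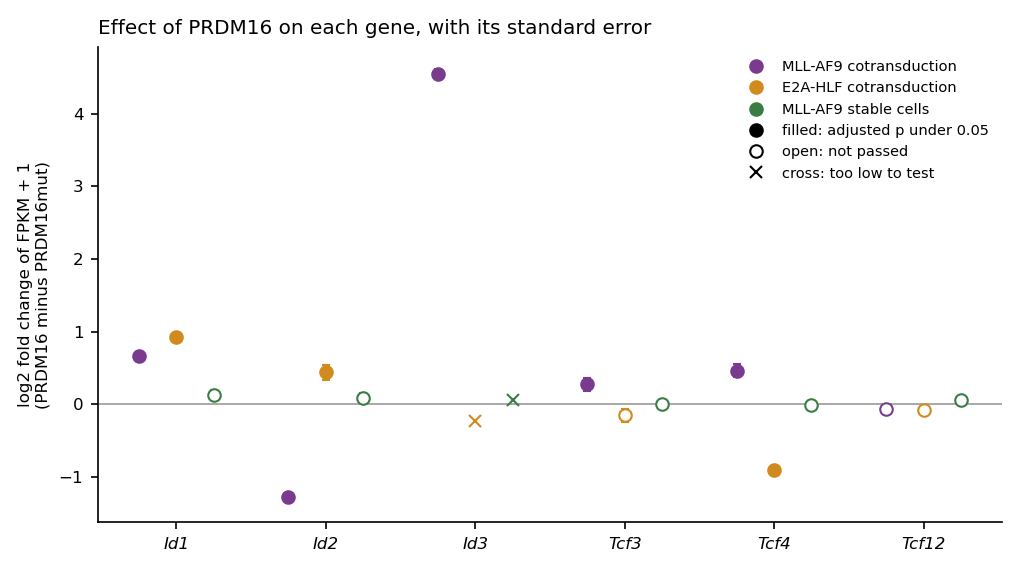
Log2 fold change of FPKM plus 1, PRDM16 minus PRDM16mut, for the 6 genes in the 3 experiments, with limma's standard error as bars; filled points passed at an adjusted p under 0.05, open points did not, and crosses mark Id3 where it was too low to test. Id3 (4.54) and Id2 (-1.28) in the MLL-AF9 cotransduction lie farthest from 0, and the stable cells stay between -0.01 and 0.13.

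The effects of PRDM16 differed between the experiments when the differences themselves were tested (limma, 1 fit of all 12 libraries, over 9490 genes, of which 9489 passed the filter in every table and Id3 was added). Between the 2 cotransductions 71.4% of genes differed, between the MLL-AF9 cotransduction and the stable cells 64.0%, and between the E2A-HLF cotransduction and stable cells 37.1%. For Id2, the log2 effect in the MLL-AF9 cotransduction minus that in the E2A-HLF cotransduction was -1.72 (adjusted p = 7.70e-07), its direction being opposite in them. For Tcf4 the same difference was 1.36 (adjusted p = 3.74e-07), again with opposite directions. For Id3 it was 4.78 (adjusted p = 7.66e-11), with the E2A-HLF values below the filter. Id3 reached 1 FPKM only in the PRDM16 libraries of the MLL-AF9 cotransduction, so it had to differ and its p is no support.

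Id1 rose in both cotransductions, and its effects there differed by only -0.26 (limma, adjusted p = 0.0281), a call lost without MLL-AF9 cotransduction PRDM16 replicate 1 (0.0703) or PRDM16mut replicate 1 (0.101), without E2A-HLF cotransduction PRDM16 replicate 1 (0.110) or PRDM16mut replicate 2 (0.0826), and after median centring (0.127). Its effect in the stable cells was smaller than in the MLL-AF9 cotransduction by 0.53 (adjusted p = 6.10e-04) and than in the E2A-HLF cotransduction by 0.79 (adjusted p = 9.71e-05). Tcf12 did not differ past the threshold between any pair of experiments (adjusted p = 0.137 or more), but the difference between the MLL-AF9 cotransduction and the stable cells passed without MLL-AF9 cotransduction PRDM16 replicate 1 (0.0275).

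The summed FPKM of the Id genes was set against that of the E protein genes as a description, since 2 against 2 libraries allow no exact permutation p below 0.333. In the MLL-AF9 cotransduction the Id sum was 236 and 245 FPKM with PRDM16 against 219 and 215 with PRDM16mut. The E protein sum was 38.7 and 41.1 against 35.5 and 35.3, so the ratio of Id to E transcripts was 6.10 and 5.96 with PRDM16 and 6.17 and 6.09 with PRDM16mut. The ratios of the groups overlapped. With Tcf3 left out, the ratio of Id to Tcf4 plus Tcf12 was 13.8 and 15.8 with PRDM16 and 13.5 and 13.4 with PRDM16mut, which did not overlap. The makeup of the Id sum differed more: Id1 made up 70.3% with PRDM16 and 49.1% with PRDM16mut, Id2 18.7% and 50.8%, and Id3 11.1% and 0.0843%.

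In the E2A-HLF cotransduction the ratio was 0.412 and 0.381 with PRDM16 and 0.182 and 0.218 with PRDM16mut, with Tcf3 making up 83.7% to 87.4% of the E protein sum. The ratio of Id to Tcf4 plus Tcf12 was 3.26 and 2.83 with PRDM16 and 1.33 and 1.34 with PRDM16mut. Both forms of the ratio were higher in the PRDM16 libraries without overlap. In the stable cells the ratio to all 3 E protein genes was 1.61 in each PRDM16 library and 1.42 and 1.58 with PRDM16mut, and that to Tcf4 plus Tcf12 was 2.88 and 2.98 against 2.58 and 2.93. The E2A-HLF libraries were lowest in the ratio to all 3, but without Tcf3 those with PRDM16 overlapped the stable cells. In the stable cells Id1 made up 88.5% to 88.7% of the Id sum.

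**Figure D3:**
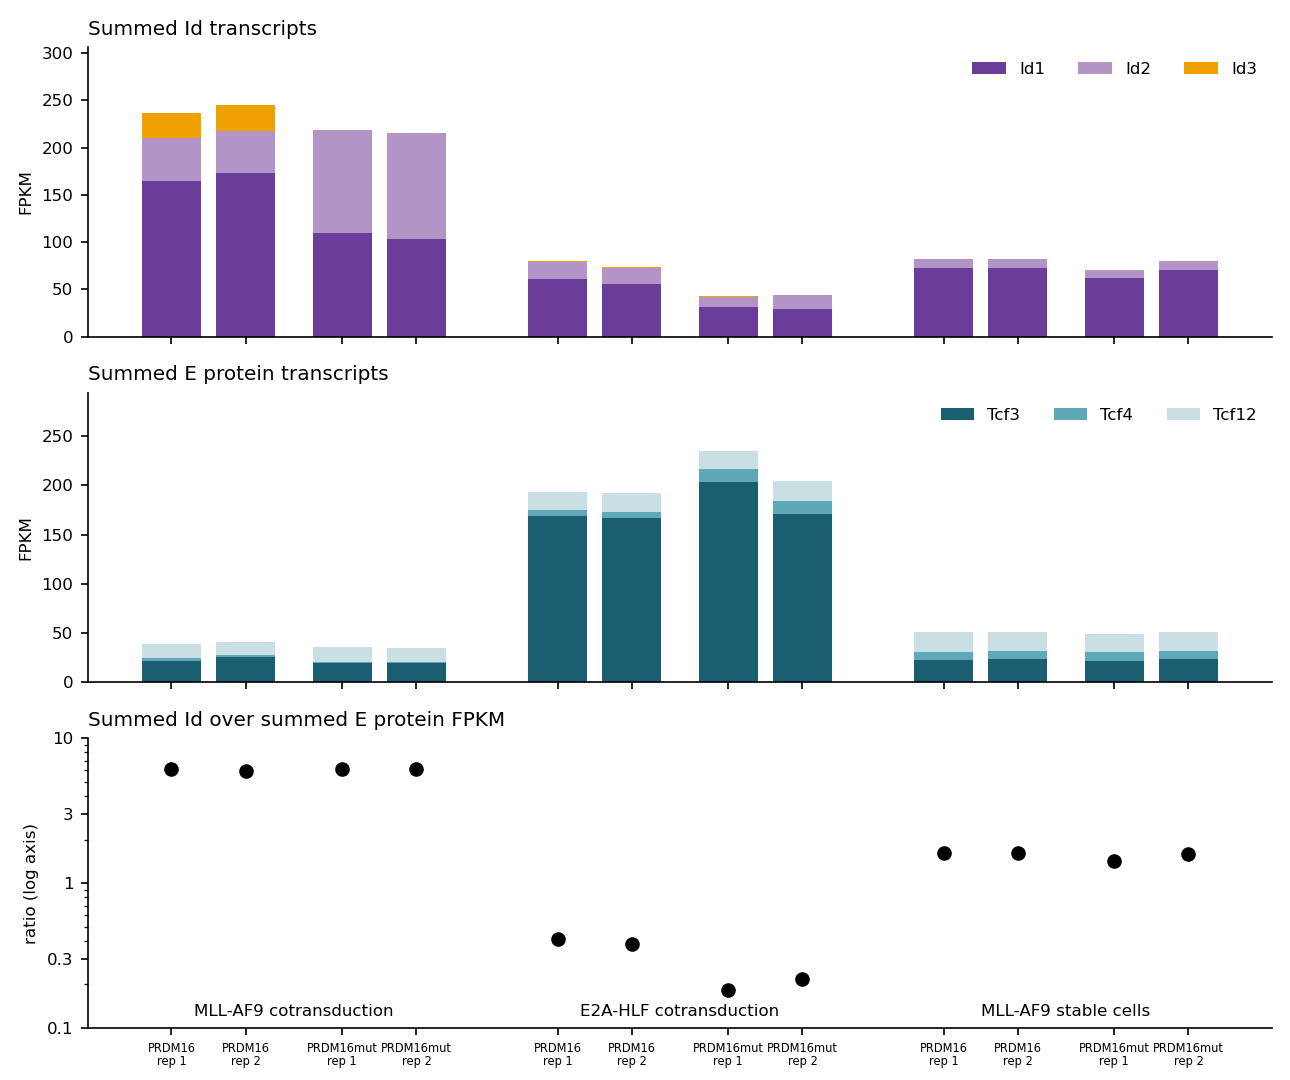
Stacked FPKM of Id1, Id2 and Id3 (top) and of Tcf3, Tcf4 and Tcf12 (middle) in each library, and the ratio of the sums on a log axis (bottom). In the MLL-AF9 cotransduction the Id sum is 215 to 245 FPKM in all 4 libraries while the share of Id2 falls from 50.8% to 18.7% with PRDM16; in the E2A-HLF cotransduction the ratio is 0.381 or more with PRDM16 and 0.218 or less with PRDM16mut.

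Across the 6 groups, which come from 3 separately made tables and are therefore described and not tested, Tcf12 was the steadiest, from 13.9 to 19.6 FPKM, and its 4 highest groups overlapped each with the next. Id1 was highest where PRDM16 met MLL-AF9 in cotransduction (169 FPKM), then in its PRDM16mut group (107), the stable cells (72.5 with PRDM16 and 66.4 with PRDM16mut) and the E2A-HLF groups (58.4 and 30.3), with no neighbours overlapping. Id2 followed another order, from 110.2 FPKM in the PRDM16mut group of the MLL-AF9 cotransduction to 9.16 and 8.56 in the stable cells, whose 2 groups overlapped. Tcf4 was highest in the PRDM16mut group of the E2A-HLF cotransduction (13.2 FPKM), then in the stable cells (8.74 and 8.64, overlapping), and lowest in the MLL-AF9 cotransduction (2.34 and 1.42). For Tcf3 the 3 groups at 22.7 to 23.6 FPKM overlapped each with the next.

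The genes most like each member were found by Pearson's r of log2(FPKM + 1), centred within each table, over the 12 libraries, which share 6 groups, so that r mostly follows the 3 contrasts. For Id3 these were Cblb (r = 0.998), a ubiquitin ligase, H2-DMb1 (0.998), of MHC class II peptide loading, and Gpr56 (0.997). For Id1 they were Tgfbr2 (0.991), a TGF-beta receptor, Cela1 (0.991) and Adam17 (0.989), a membrane protease, and for Id2 Ska1 (0.993), of the spindle, Nudt3 (0.992) and Sephs2 (0.991). For Tcf4 they were Trim12c (0.993), Ifi27l1 (0.990) and Cmpk2 (0.990), an interferon-induced gene, for Tcf3 Bcl9l (0.956), Cic (0.950) and Zbtb17 (0.944), and for Tcf12 Cisd2 (0.931), Csnk1a1 (0.904) and Cggbp1 (0.889).

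Changes written from a first value to a second below run from the PRDM16mut mean to the PRDM16 mean. The counts of list genes stand beside 35.6% of all genes tested higher and 34.0% lower in the MLL-AF9 cotransduction, 22.7% and 21.1% with E2A-HLF and 4.20% and 2.16% in the stable cells. Genes that passed the filter only through the group in which they were high had to differ, so they are named where they enter a count. Among the tissue-restricted helix-loop-helix partners of E proteins, most of the 12 genes listed were at or near 0. Of 3 tested in the MLL-AF9 cotransduction 2 rose: Tal1, which pairs with E proteins in stem and erythroid cells, from 9.53 to 36.3 FPKM (limma, log2 fold change 1.83, adjusted p = 1.06e-05), and Bhlha15 (Mist1), from 0.252 to 1.47, which passed the filter only through the PRDM16 group. The erythroid markers Hbb-b1, Epor and Klf1 rose in the same libraries as Tal1, Hbb-b1 from 79.0 to 560.4 FPKM, and their part in the Tal1 value was not tested. Lyl1, the closest relative of Tal1, stayed high at 99.1 against 94.2 FPKM and did not pass. With E2A-HLF 0 rose and 1 fell of 4 tested, Tcf21 from 2.22 to 0.0665 FPKM (log2 fold change -1.59), which passed the filter only through the mutant group, while Tal1 measured 11.2 against 10.98 FPKM. Neither of the 2 tested in the stable cells passed by limma, with 1 at an unadjusted p under 0.05, and Tal1 was at 0.0391 and 0.0181 FPKM, near 0 in cells that expressed Lyl1 at 87.3 and 91.9.

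Of 11 cofactors that E proteins and Tal1 recruit, 10 were tested in each table. In the MLL-AF9 cotransduction 3 rose and 4 fell, with a median log2 fold change of -0.05 beside 0.01 over all genes. The largest were Cbfa2t3, a corepressor of the ETO family, from 8.22 to 36.0 FPKM (limma, adjusted p = 2.85e-05), Lmo1 (log2 fold change 1.33) and Lmo2 (-1.33), bridging proteins of the Tal1 complex, Lmo2 going from 100.3 to 39.4 FPKM. With E2A-HLF 2 rose and 3 fell with a median of -0.08, Lmo4 rising from 39.4 to 70.4 FPKM and Lmo2 falling from 699 to 572. By limma 0 of 10 passed in the stable cells, with 4 at an unadjusted p under 0.05.

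The BMP and TGF-beta pathway lies upstream of the Id genes. In the MLL-AF9 cotransduction, of 27 BMP and TGF-beta signalling genes 20 were tested, 13 rose and 4 fell. Of those that rose, Bmp2, Acvrl1, Acvr2b and Smad3 passed the filter only through the PRDM16 group, and of those that fell Smad7 only through the mutant group, so neither the counts nor a median over the list is support for a direction. Bmp7, at 0 against 0.843 FPKM, was not tested. These genes were named here after their values were seen. Bmpr1a, a type I BMP receptor, rose from 1.08 to 8.90 FPKM (limma, log2 fold change 2.25, adjusted p = 1.03e-05), and Smad1, the BMP signal transducer, from 1.16 to 4.72. Acvrl1, another type I receptor, rose from 0.0639 to 1.07 FPKM. The ligand Bmp2 was listed at 0 in both mutant libraries and measured 1.81 and 1.55 FPKM with PRDM16. The 4 that fell included Acvr1, also a type I receptor, from 7.92 to 4.39 FPKM (limma, log2 fold change -0.73, adjusted p = 4.12e-04). The others were Tgfbr1 from 17.0 to 14.9, Smad6 from 1.94 to 1.23 and Smad7 from 1.91 to 0.921. Smad5 did not pass, at 5.66 against 6.37 FPKM (limma, adjusted p = 0.0802).

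In the E2A-HLF cotransduction 18 of these genes were tested, 2 rose and 8 fell, with a median of -0.21. The ones that rose were Tgfbr2, from 22.8 to 44.9 FPKM (limma, log2 fold change 0.95, adjusted p = 3.61e-05), and Tgfb1, from 82.7 to 112. Among those that fell were the co-receptor Eng, from 52.1 to 32.6 FPKM, and signal transducers. Smad3 of the TGF-beta branch went from 5.96 to 3.77 FPKM and Smad5 of the BMP branch from 13.95 to 10.1. Smad1 and Bmpr1a, which rose in the MLL-AF9 cotransduction, did not rise here. Smad1 fell from 3.34 to 2.18 FPKM (limma, adjusted p = 0.00210), and Bmpr1a did not pass, at 3.92 against 4.16 FPKM (limma, adjusted p = 0.366). Tgfb1 was named after its values were seen, to complete the count of 2. Of 16 tested in the stable cells 1 passed, Bmpr1a from 5.99 to 7.16 FPKM (adjusted p = 0.0386).

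Genes that act on the stability of these proteins numbered 6, and with MLL-AF9 cotransduced 1 of them rose and 4 fell. Usp1, the deubiquitinase that stabilizes Id proteins, fell from 46.4 to 31.6 FPKM (limma, log2 fold change -0.54, adjusted p = 0.00159), its partner Wdr48 from 16.7 to 13.8, and the ubiquitin ligase genes Skp2 from 10.7 to 7.57 and Itch from 17.7 to 13.3. The one that rose was Stub1, from 39.9 to 45.5 FPKM (adjusted p = 0.0483), named after its values were seen. In the E2A-HLF cotransduction and stable cells 0 of 6 passed by limma, with 0 and 1 at an unadjusted p under 0.05 and with Usp1 at 50.4 against 47.9 and 64.7 against 65.4 FPKM.

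**Figure D4:**
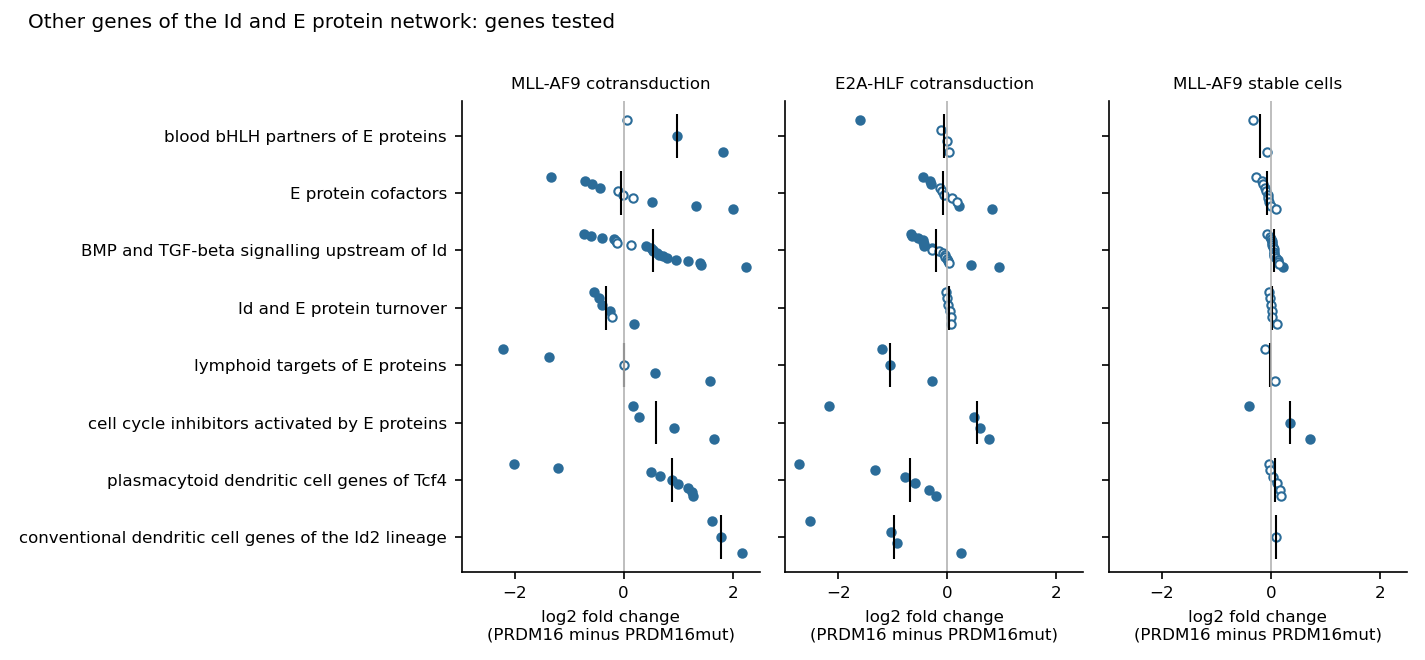
Log2 fold change, PRDM16 minus PRDM16mut, of the tested genes of 8 lists around the Id and E proteins in the 3 experiments; filled points passed at an adjusted p under 0.05 and black lines are list medians. Some genes of each experiment passed the filter only through the group in which they were high, so the medians are drawn as a description. BMP and TGF-beta genes have a median of -0.21 in the E2A-HLF cotransduction, and nearly all points of the stable cells are open and near 0.

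Lymphoid targets of E proteins were nearly silent: of 18 genes, 13, 15 and 16 stayed under 1 FPKM in all 4 libraries of the MLL-AF9 cotransduction, its E2A-HLF counterpart and the stable cells, Ebf1, Pax5, Rag1 and Dntt among them. Of 5 tested in the MLL-AF9 cotransduction 2 rose and 2 fell. Notch1 fell from 19.2 to 3.40 FPKM (limma, log2 fold change -2.20, adjusted p = 3.28e-05) and Il7r, the interleukin 7 receptor, from 3.85 to 0.890, while Foxo1 rose from 1.01 to 5.04 and Hes1 from 1.67 to 2.99. With E2A-HLF all 3 tested fell, Cd79b from 10.1 to 4.36 FPKM, Foxo1 from 8.67 to 3.22 and Notch1 from 2.54 to 1.94. Neither of 2 tested in the stable cells passed by limma, with 0 at an unadjusted p under 0.05.

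Cyclin-dependent kinase inhibitors that E proteins are known to activate passed in every experiment. All 4 rose in the MLL-AF9 cotransduction, Cdkn2b from 4.50 to 16.2 FPKM (limma, adjusted p = 3.40e-05) and Cdkn1a from 108 to 206. With E2A-HLF 3 rose, Cdkn2a from 34.2 to 58.9 FPKM among them, and Cdkn1c fell from 8.71 to 1.15 (log2 fold change -2.17, adjusted p = 4.40e-06). The stable cells had 2 of 3 rise, Cdkn2a from 11.42 to 19.5 FPKM (adjusted p = 0.00397) and Cdkn1a from 46.5 to 59.4, and Cdkn1c fell from 3.26 to 2.24 (adjusted p = 0.0305). Of the 8 lists drawn in the plot of network genes, only these and Bmpr1a passed in the stable cells.

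Plasmacytoid dendritic cells are known to need Tcf4, and 12 of their genes were listed. With MLL-AF9 cotransduced, 7 of 9 tested rose and 2 fell, beside 35.6% and 34.0% of all genes. Spib, Tlr9 and Bcl11a passed the filter only through the PRDM16 group and Tlr7 only through the mutant group, so these counts are no support for a direction. Tlr9, a nucleic acid sensor, rose from 0.168 to 1.83 FPKM (limma, adjusted p = 1.07e-04) and the transcription factor Bcl11a from 0.252 to 1.501, while Runx2 fell from 7.43 to 1.10 and Tlr7 from 3.28 to 0.849. In the E2A-HLF cotransduction all 6 tested fell, beside 21.1% of all genes, with a median log2 fold change of -0.68 beside 0.01 over all genes, Irf7 from 20.6 to 2.27 FPKM, Bst2 from 239.8 to 94.8 and Bcl11a from 8.05 to 4.29. Irf7 and Bst2 are also interferon-induced, and Siglech, the defining surface gene of these cells, was at 0.0213 FPKM or less in all 12 libraries. Among the stable cells 0 of 6 passed by limma, with 1 at an unadjusted p under 0.05.

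Conventional dendritic cell genes, of a lineage that needs Id2, were often too low to test. Of 8 listed, the 3 tested in the MLL-AF9 cotransduction rose, but Itgae and Itgax passed the filter only through the PRDM16 group: Cd24a from 154 to 477 FPKM, Itgae from 0.737 to 6.78 and Itgax from 0.225 to 3.20. With E2A-HLF 1 rose and 3 fell, Flt3, the receptor of dendritic progenitors, from 28.9 to 4.25 FPKM (limma, log2 fold change -2.51, adjusted p = 1.42e-06). Of the defining genes, Clec9a fell there from 1.10 to 0.109 FPKM (limma, log2 fold change -0.92, adjusted p = 2.09e-04), having passed the filter only through the mutant group, and Itgax, the one that rose, only through the PRDM16 group. Xcr1, Batf3 and Zbtb46 stayed under 1 FPKM in every library.

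Markers of other blood lineages moved with the same contrasts. All 8 neutrophil markers fell in the MLL-AF9 cotransduction, their summed level being 478 to 533 FPKM with PRDM16 and 8513 to 8579 with PRDM16mut, and 5 of 5 mast cell markers fell, from 2083 to 2099 down to 96.4 to 104 FPKM. Monocyte markers rose in 3 of 4 tested, with sums of 4093 to 4160.0 against 1844 to 1856 FPKM. With E2A-HLF 5 of 6 neutrophil markers tested rose, with sums of 1405 to 1469 against 658 to 668 FPKM, and 3 of 3 monocyte markers, 320 to 345 against 33.7 to 34.1. Erythroid markers rose in 3 of 3 tested in the MLL-AF9 cotransduction, with sums of 357 to 776 against 51.9 to 112 FPKM, and megakaryocyte markers were 3 higher and 1 lower of 4, with sums of 88.5 to 95.2 against 91.2 to 95.2. With E2A-HLF 1 of 3 erythroid markers rose, and megakaryocyte markers were 2 higher and 2 lower of 4, Itga2b rising from 10.9 to 40.4 FPKM. In the stable cells 2 of 8 neutrophil markers fell, 2 of 4 monocyte markers rose, and the 1 megakaryocyte marker tested, Pf4, rose from 1.92 to 2.98 FPKM. Among these, Cma1 and Mcpt4 of mast cells in the MLL-AF9 cotransduction, and Cma1, the neutrophil genes Cebpe and Ngp and the megakaryocyte gene Gp5 with E2A-HLF, passed the filter only through the group in which they were high. The part of these marker differences in the values of the Id and E protein genes was not tested.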

How the data were processed

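RNA-seq of 12 libraries was deposited as 3 tables of FPKM, which the authors made per gene and library. Per the submitters' processing notes, Bowtie2 2.0.0.7, TopHat2 2.0.3, Cuffdiff and the mm9 build were used. The annotation, Cuffdiff version, library scaling and filters were not given in the sources used here.

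Each table was tested alone in R 4.3.3 with limma 3.58.1 on log2(FPKM + 1), with a variance trend, two-sided, and Benjamini-Hochberg adjustment over all genes that reached 1 FPKM in 2 of the 4 libraries. The scale makes changes of low genes look smaller. Differences between experiments came from 1 fit of all 12 libraries. The method was tested on simulated data. P-values set a difference against the spread between the 2 libraries of each group, moderated by a trend over all genes. That spread may be technical.

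The members and gene lists were chosen with earlier results of these data known. Named from each list were up to 4 called genes of smallest p per comparison and defining genes near 0; likeness named the 3 genes of highest r per member, passing over clone names and predicted genes. Alternatives were other pseudocounts, filters, normalizations, variance priors, a replicate block and leaving out each library.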

Additional observations from a re-analysis of the deposited data

Results flagged for a closer look

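The effect of PRDM16 against PRDM16mut differed between experiments in 11 of the 18 tests made for the 6 genes (limma, 1 fit of 12 libraries, Benjamini-Hochberg adjusted p under 0.05), 5, 4 and 2 of 6 in the order below, beside 71.4%, 64.0% and 37.1% of the 9490 genes fitted. The counts are near those shares. Id3 enters the 5 and the 4. It was fitted though it reached 1 FPKM only in the PRDM16 libraries of the MLL-AF9 cotransduction, so it had to differ there. Each value below is a difference between 2 log2 fold changes of FPKM plus 1.

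Between the MLL-AF9 and the E2A-HLF cotransduction, the effect on Id3 differed by 4.78 and that on Id2 by -1.72, and the effects on Tcf4 and Tcf3 by 1.36 and 0.43 (adjusted p = 0.00875 for Tcf3). The effect on Id1 differed by -0.26 (adjusted p = 0.0281).

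Between the MLL-AF9 cotransduction and the stable cells, the effect on Id3 differed by 4.49, that on Id2 by -1.37, that on Id1 by 0.53 and that on Tcf4 by 0.48 (adjusted p = 0.00114 for Tcf4). Between E2A-HLF cotransduction and stable cells, the effect on Id1 differed by 0.79 and that on Tcf4 by -0.88 (adjusted p = 4.33e-05 for Tcf4). Id2 and Id3 missed the threshold narrowly there, at 0.35 and -0.29 (limma, adjusted p = 0.0559 and 0.0595). Over the alternatives they ran from 0.19 to 0.51 and from -1.13 to -0.21, and both passed in some settings, so these misses depend on the setting. Tcf3 missed between the MLL-AF9 cotransduction and the stable cells, at 0.26 (limma, adjusted p = 0.0794). Its range was 0.14 to 0.38, and it too passed in some settings.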

How the results depend on the processing

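Of 211 alternative values for the 6 genes, 201 kept their direction and their side of the threshold, 3 newly passed, 4 no longer passed and 3 changed sign. Those that changed sign were Tcf3 in the stable cells, 0.01 as reported, at -0.000101 with quantile normalization and at -0.0272 to 0.0492 when 1 library was left out, none of them past the threshold. The Tcf12 difference between the cotransductions, 0.00765 as reported, changed sign without 3 single libraries, with a range of -0.0482 to 0.0635 and no call. Without a filter on low values, Tcf3 in the MLL-AF9 cotransduction (0.27, limma adjusted p = 0.0821) and Id2 in the E2A-HLF cotransduction (0.44, 0.0656) no longer passed. With all 12 libraries in 1 fit, Id3 in the E2A-HLF cotransduction passed at -0.23 (0.0294). The count of genes called in the stable cells, 673, was 41 without a filter, 278 without a variance trend and 299 in the fit of 12 libraries; the cause was not tested. Leaving out 1 library gave 65 to 139 calls there, 5259 to 8689 in the MLL-AF9 cotransduction, and log2 fold changes of 0.16 to 0.39 for Tcf3 and -0.13 to -0.0144 for Tcf12 in the MLL-AF9 cotransduction and of -0.28 to -0.0321 for Tcf3 in the E2A-HLF cotransduction. The Id3 fold change in the MLL-AF9 cotransduction reached 6.57 with a pseudocount of 0.1. With the replicate number as a block, 7812, 4354 and 664 genes were called with MLL-AF9 cotransduced, with E2A-HLF and in the stable cells, and no call among the 6 genes changed. The labels do not say that numbers pair the libraries, and deviations of same-numbered libraries correlated at 0.07, 0.29 and 0.32. Tcf4 in the MLL-AF9 cotransduction had no value at a minimum of 5 FPKM, and absolute depth is unknown, so no limit of detection can be given for Id3.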
